A study of Caenorhabditis elegans with 2 samples.

Results

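The X chromosome of Caenorhabditis elegans held 4993 of the 30000 candidate regions ranked in a ChIP-seq experiment on the transcription factor ALR-1. The regions were all those of the deposited list from the pooled replicates that lie on X, ranked by the signal the authors' peak caller gave them. Each was paired with the nearest region of each replicate's own list whose summit lay within 200 bp. There was 1 group of 2 biological replicates and no second condition. The animals were strain OP362, unc-119(tm4063) III with the integrated transgene wgIs362, which carries ALR-1 with a GFP-FLAG tag at its C-terminal end. They were mixed-sex L1 larvae, 6 hours old and starved after bleaching, used as whole organisms, and sonicated chromatin was precipitated with an antibody against GFP. A tagged copy of alr-1 was thus present beside the chromosomal gene, and signal from these copies cannot be told apart in the lists. In whole larvae, occupancy in few cells and weak occupancy in many cells cannot be told apart either.

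ALR-1 is a homeodomain protein of the aristaless family, known in this worm for roles in the identity of touch receptor neurons and in sensory neurons and their glia. Proteins of this class bind DNA around the core letters TAAT, often as a palindrome with its complement ATTA. The X chromosome is the sex chromosome of the worm: hermaphrodites carry a pair and males a single copy, and a dosage compensation complex lowers transcription from the hermaphrodite pair. It carries few genes with strong germline expression. It also carries its own counting genes, the X signal elements, whose products repress the sex-determination switch gene xol-1.

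Sequence around the summit is shown for 5 of the strongest X regions, to set the TAAT core beside the annotation of each place. The letters are the plus strand of ce11 (the same assembly as WBcel235, from the RefSeq genome), the summit base and 50 bases on each side, with every TAAT or ATTA in capitals. Region 1 spans chrX:11124148-11124248 inside alr-1, region 2 spans chrX:2527344-2527444 in a coding exon of tbc-12, and region 4 spans chrX:8421730-8421830 in an intron of tag-123. Region 8 spans chrX:3631709-3631809 between genes and region 10 spans chrX:487896-487996 beside a tRNA gene.
X region 1: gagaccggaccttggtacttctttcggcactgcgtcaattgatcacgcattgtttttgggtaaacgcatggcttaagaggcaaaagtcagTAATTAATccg
X region 2: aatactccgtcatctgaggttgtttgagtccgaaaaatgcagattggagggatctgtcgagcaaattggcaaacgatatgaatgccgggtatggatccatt
X region 4: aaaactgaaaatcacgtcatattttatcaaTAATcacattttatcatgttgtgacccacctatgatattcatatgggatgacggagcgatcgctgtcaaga
X region 8: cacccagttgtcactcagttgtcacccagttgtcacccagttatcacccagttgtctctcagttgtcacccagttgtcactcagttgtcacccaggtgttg
X region 10: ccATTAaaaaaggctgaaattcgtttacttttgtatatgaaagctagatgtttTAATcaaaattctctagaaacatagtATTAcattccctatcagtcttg

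The alr-1 region held the core as an overlapping run near the right end of its window, and the window beside the tRNA gene held it at 3 separate places. The tbc-12 window and that of region 8 held none. Neither did the windows of regions 3, 6 and 9, which were read in the same way but are not printed. How often other windows of this width on X hold the core was not counted. The window of region 8 was a tandem repeat: 88.6% of its bases equalled the base 22 positions earlier, whereas in the other windows examined the best such share over the periods tried was at most 43.2%. Reads from a tandem array can come from several copies, and the part of this in its signal was not tested.

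The authors' signal values are comparable within a list only. The pooled, replicate 1 and replicate 2 lists each hold 30000 regions, peaks and background together, so a region's presence in a list is no call of binding. The authors' stricter list holds 182 peaks selected by irreproducible discovery rate (IDR), and they are the 182 strongest regions of the pooled list. Read depth is unknown from such lists, and the intervals below are exact binomial 95% intervals for the counting of regions or genes alone. With 2 replicates of 1 group, no permutation over samples can pass 0.05, so X is set against the 5 autosomes by description: by the range from autosome to autosome and by the values in each replicate.

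X was covered slightly more thinly than the autosomes combined, and its regions were weaker. X makes up 17.7% of the genome's length and held 16.6% of the pooled regions (interval 16.2 to 17.1%). That is 282 regions per Mb on X, against 303 per Mb on the autosomes, where chromosome V had 262 and chromosome III had 333. The replicates differed here by more than that gap: X held 4768 regions (269 per Mb) in replicate 1 and 5216 (294 per Mb) in replicate 2, against 306 and 300 per Mb on the autosomes. Median pooled signal was 52.2 on X and 53.5 on the autosomes, and each autosome's median, from 52.6 to 54.6, was above that of X. In replicate 1 the medians were 27.1 on X and 27.9 on the autosomes, and in replicate 2 they were 29.3 on X and 29.9 on the autosomes. Again X lay below each autosome in both.

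The strong end of the list held few X regions. Of the IDR peaks, 13 were on X, which is 0.26% of the X regions (interval 0.139 to 0.445%), against 169 or 0.676% of the autosomal regions (0.578 to 0.785%) and 0.607% over the whole list. X supplied 97 of the top 1000, or 1.94% of its regions, against 3.61% of the autosomal regions and 3.33% over all. The share of X in the list, divided by its share of genome length, was 0.404 in the top 182, 0.549 in the top 1000, 0.724 in the top 5000 and 0.942 in the whole list. In the pooled list X was the lowest of the 6 chromosomes in the top 100, 182, 1000, 2000 and 5000. It was not the lowest in the top 500, where V stood at 0.498 and X at 0.532, nor from the top 10000 down, where V was again below X. In both replicates X was the lowest in the top 100, 182, 500 and 2000. In the top 1000 of replicate 1, X and V both stood at 0.589. In the top 5000 of replicate 2, X at 0.813 was above II at 0.799 and V at 0.803. Replicate 1 placed 11 X regions in its top 182 and 104 in its top 1000, and replicate 2 placed 18 and 114. With 13 peaks the interval for the X share of the IDR list ran from 3.86 to 11.9%, and its upper end was below the length share of 17.7%.

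**Figure D1:**
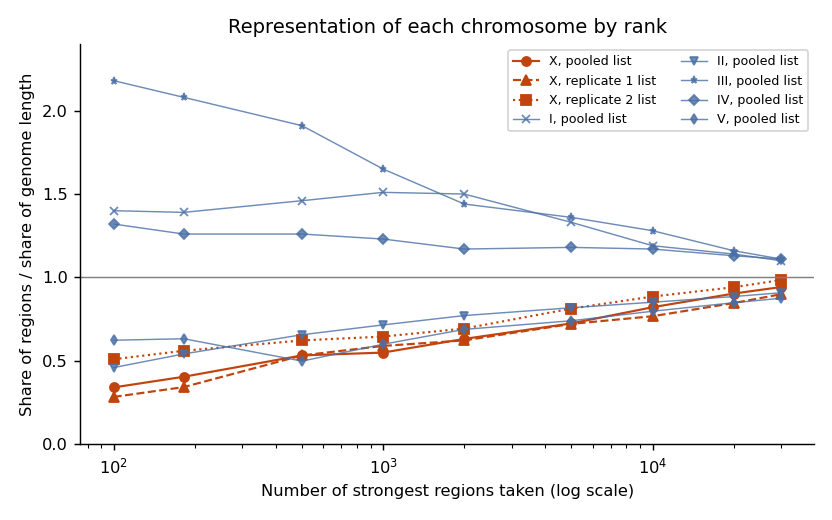
Share of the strongest regions that lie on each chromosome, divided by the chromosome's share of genome length, against the number of regions taken (log axis); orange points are X in the pooled and replicate lists and blue points are the autosomes in the pooled list. The X curve runs from 0.34 in the top 100 to 0.942 in all 30000, near those of II and V, while I, III and IV stay above 1.

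The strongest X region was in alr-1 itself, the gene whose product was precipitated. Region 1 (11124016 to 11124379) had a pooled signal of 146 and rank 6 in the genome, with signals of 78.5 (rank 9) in replicate 1 and 88.9 (rank 6) in replicate 2. It was high in both replicates. Its summit lay inside alr-1 (WBGene00044330, minus strand, 11121871 to 11125620), 1422 bp downstream of the 5′ end. The promoter class it received came from R08B4.7, a small non-coding RNA gene with its 5′ end 19 bp away.

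The alr-1 gene carried 6 pooled summits within its 3750 bp, 4 of them in the top 1000 of the genome. Region 5, in the 3′ UTR (11122408 to 11122771), had rank 49, but its signals were 41.9 (rank 1954) in replicate 1 and 75 (rank 30) in replicate 2. Region 47, in an intron, had rank 490, with rank 215 in replicate 1 and rank 4530 in replicate 2. Region 67 had rank 695, with rank 140 in replicate 2 and no replicate 1 summit within 200 bp. Only region 1 among these was strong in both replicates. The other summits inside the gene, regions 569 and 1928, ranked 4544 and 12917 and overlap regions 67 and 5, so neighbours share signal. Upstream of the gene, region 25 had its summit 630 bp before the 5′ end, with pooled rank 247, rank 370 in replicate 1 and rank 5230 in replicate 2.

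Region 2 lay in a coding exon of tbc-12, which encodes a TBC-domain protein of the family that activates the GTPase of Rab proteins. It spanned 2527212 to 2527575 with a pooled signal of 144 (rank 9), and 76.2 (rank 13) in replicate 1 and 65.7 (rank 98) in replicate 2. Regions 1 and 2 were the X peaks within the top 182 of both replicates. The 5′ end of tbc-12 was 5063 bp away, whereas 2 tRNA genes had theirs 648 and 1103 bp from the summit, transcribed away from it on either side.

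The other 11 IDR peaks of X included region 5 of alr-1 and stood unevenly in the replicates. Region 3 (13974924 to 13975287, rank 39) was intergenic, 547 bp upstream of F48F7.5, with signals of 52.3 (rank 374) in replicate 1 and 74.8 (rank 31) in replicate 2. Region 4 (8421598 to 8421961, rank 41) was in an intron of tag-123, 275 bp downstream of its 5′ end, with 46.4 (rank 960) in replicate 1 and 77.8 (rank 22) in replicate 2. Both were carried mainly by replicate 2. Region 6 (11301355 to 11301718, rank 90), in an intron of F08G12.3, was more even, with 55.5 (rank 234) in replicate 1 and 55.2 (rank 466) in replicate 2.

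Region 7 (1855764 to 1856127, rank 105) lay in an intron of ceh-39, 226 bp downstream of its 5′ end. The gene encodes a homeodomain protein of the ONECUT family and is an X signal element. Its signals were 45.8 (rank 1063) in replicate 1 and 63.6 (rank 136) in replicate 2. Region 8 (3631577 to 3631940, rank 118), the tandem repeat shown above, had 50.5 (rank 500) and 60.4 (rank 209) in replicates 1 and 2. The nearest protein-coding 5′ end was that of gst-11, a glutathione S-transferase gene, 1995 bp away.

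Region 9 (2238655 to 2239018, rank 124) was in a coding exon of vha-15, which encodes a subunit of the vacuolar proton pump. It had 62.9 (rank 79) in replicate 1 and 56.7 (rank 373) in replicate 2. Region 10 (487764 to 488127, rank 131) was 131 bp downstream of the 5′ end of a tRNA gene, with 57.9 (rank 162) and 48.5 (rank 1229) in replicates 1 and 2. The nearest protein-coding gene was egl-17, which encodes a fibroblast growth factor that guides migrating sex myoblasts, with its 5′ end 1739 bp from the summit. This pair stood higher in replicate 1.

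Region 11 (8232266 to 8232629, rank 136) was in a coding exon of M60.4 and 517 bp upstream of K02A6.3, with 51.9 (rank 402) in replicate 1 and 53.2 (rank 600) in replicate 2. Region 12 (14810316 to 14810679, rank 138) was in a coding exon of atf-4, a bZIP transcription factor gene related to mammalian ATF4, 312 bp downstream of its 5′ end. It had 37 (rank 4220) in replicate 1 and 73 (rank 38) in replicate 2, the widest gap in rank among the 13. Region 13 (9112935 to 9113298, rank 177), the last X region within the IDR list, was in an intron of ajm-1, which encodes a protein of the apical junctions of epithelia. It had 53.5 (rank 306) and 51.6 (rank 754) in replicates 1 and 2. The next X region, in suca-1, a gene for a subunit of succinyl-CoA synthetase, had rank 184 and was the first outside, and both had a pooled signal of 108 when rounded.

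**Figure D2:**
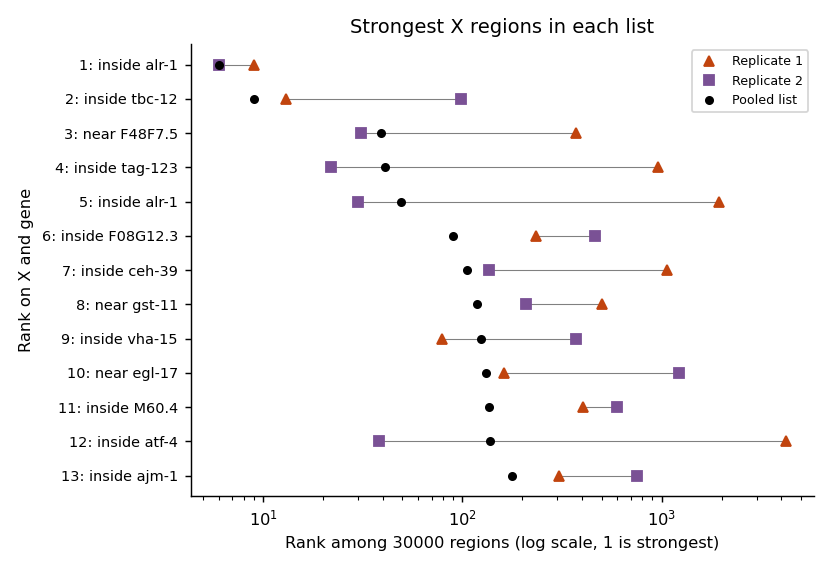
Rank of the 13 X peaks of the IDR list in the pooled list and in each replicate (log axis, 1 is strongest); the lines join the replicates, and names give the protein-coding gene around the summit or the nearest protein-coding 5′ end. Regions 1 and 2 lie left of rank 182 in both replicates, and region 12 in atf-4 runs from 38 in replicate 2 to 4220 in replicate 1.

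Of the 13 X peaks, 2 were in the top 182 of both replicates, 4 in the top 182 of neither and 9 in the top 1000 of both. Replicate 2 ranked 7 of them higher. Among the 97 X regions of the top 1000, 18 had counterparts in the top 1000 of both replicates, or 18.6%, against 167 of 903 or 18.5% of the autosomal ones. Strong X regions thus had such counterparts at nearly the autosomal rate. The pooled list was made from the same 2 replicates, so these counterparts are not independent evidence of recurrence.

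Over the whole list, 41.6% of X regions had a counterpart in both replicates (interval 40.3 to 43%), against 43.9% of autosomal regions (43.2 to 44.5%), a range of 41.5% on V to 46.1% on III, and 43.5% over all. The replicates went opposite ways: 64.8% of X regions had a replicate 1 counterpart, below each autosome, and 70.8% had a replicate 2 counterpart, above each autosome. On the autosomes the shares were 69% in each replicate. The shares over all regions were 68.3% for replicate 1 and 69.3% for replicate 2. Replicate 2 also had the larger number of X regions, and the part of that in these shares was not tested. The share with both counterparts depended on rank, and pooled rank itself draws on the signal of both replicates. It was 96 of 97 X regions in the top 1000, 92.3% at ranks 1001 to 5000, 71.4% at 5001 to 10000, 40.6% at 10001 to 20000 and 10.9% below that. The autosomal values were 97.8%, 89.1%, 69.2%, 37.2% and 12.5%. Across regions matched in both replicates, Spearman's rho between the replicates' signals was 0.17 on X (2079 regions) and 0.207 on the autosomes (10967 regions), as a description of regions that share the same 2 libraries.

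The placement of summits relative to coding sequence differed between X and each autosome in all 3 lists. Coding exons held 18.1% of X summits (904 regions, interval 17 to 19.2%), against 28.9% of autosomal summits (28.4 to 29.5%). Bases were classed in the same way as summits, so coding bases within a promoter or UTR are left out. The coding exon class then held 17.5% of the bases of X against 22% on the autosomes, so each share was divided by the share of bases. The ratio was 1.03 on X and 1.32 on the autosomes, where it ran from 1.25 on V to 1.41 on III. In replicate 1 it was 1.15 on X and 1.37 on the autosomes (1.31 to 1.45), and in replicate 2 it was 1.01 on X and 1.25 on the autosomes (1.19 to 1.33). X summits thus fell in coding exons nearly in proportion to sequence, with a larger excess in replicate 1 than in replicate 2. The X-minus-autosome difference of -10.8 points was -3.98 points when promoters were widened to 2000 bp upstream and 200 bp downstream, and the intergenic difference of 14 points was then 5.64 points.

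Intergenic sequence and introns showed the reverse order. Intergenic summits were 30.6% of those on X, with a ratio of 1.00 to their share of bases, against 16.6% on the autosomes with a ratio of 0.814 (0.741 to 0.916). For introns the X share was 28.6% with a ratio of 1.01, against 27.6% on the autosomes with a ratio of 0.887 (0.81 to 0.932). X was above each autosome in both ratios in all 3 lists. The promoter class, from 500 bp upstream to 100 bp downstream of any gene's 5′ end, gave a ratio of 0.936 on X, within the autosomal range of 0.902 to 1.15. That class mixes gene types: chromosome IV has 14714 piRNA genes, and X has 162 of them but 2520 genes of the general ncRNA class and 276 tRNA genes. With promoters of protein-coding genes only, the ratio was 0.876 on X and 0.925 on the autosomes (0.878 to 0.987). Among the rarer classes, the strongest X summit in a non-coding exon was in M163.17 (rank 903). The strongest in a 5′ UTR was in daf-12, the nuclear receptor gene of the dauer decision (rank 1551).

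**Figure D3:**
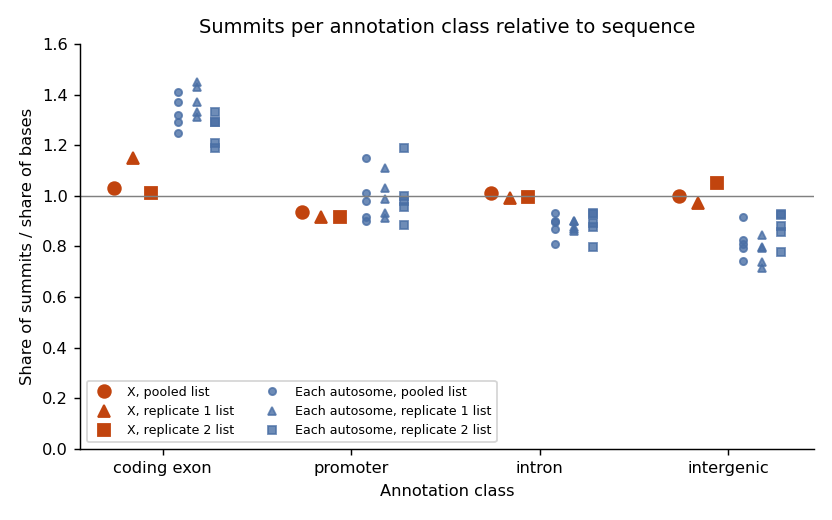
Share of summits in an annotation class divided by the class's share of bases, for X (orange) and each autosome (blue) in the pooled list (circles), replicate 1 (triangles) and replicate 2 (squares). For coding exons X stands at 1.03, 1.15 and 1.01, below the autosomes of the same list, and for introns and intergenic sequence it stands above them.

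The difference in coding share was larger among strong regions. At ranks 1 to 1000, 21.6% of X summits were in coding exons (interval 13.9 to 31.2%, 97 regions), against 44.2% of autosomal summits (40.9 to 47.5%, 903 regions). At ranks 20001 to 30000 it was 16.8% on X and 25.9% on the autosomes. The X share thus varied less with rank than the autosomal share did. In replicate 1 the share at ranks 1 to 1000 was 26.9% on X and 49.3% on the autosomes, and in replicate 2 it was 21.1% on X and 40% on the autosomes.

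Base composition followed the same pattern. Mean GC within 100 bp of the summit was 34.2 ± 7.32% on X (SD over 4993 regions) and 36 ± 7.78% on the autosomes (25007 regions). The whole sequences have 35.2% and 35.5%, so summits minus whole sequence came to -0.961 percentage points on X and 0.54 points on the autosomes (0.00739 to 1.37). The X difference was -0.467 points in replicate 1 and -1.26 in replicate 2, lower than each autosome in both. Autosomal values were 1.02 and 0.0976 points. At ranks 1 to 1000 mean GC was 36.2% on X and 40% on the autosomes, and at ranks 20001 to 30000 it was 33.9% on X and 35.2% on the autosomes.

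Within annotation classes the gap was uneven. Within coding exons, where GC is highest, summits had 41.1% on X, where all bases of the class have 43.4%, and 41.3% on the autosomes, where they have 42.8%. Against the autosomes combined, promoter summits went the other way, with 34.7% on X and 33.5% on the autosomes. Promoter bases there have 36.2% and 34.4%, and X was also the higher in both replicates. By chromosome, however, X was within the range, which ran from 31.1% on IV to 36.1% on I in the pooled list. It was below I, II and III. Chromosome IV supplied 2217 of the 5346 autosomal promoter summits. Within intergenic sequence they had 31% on X, where all intergenic bases have 33.2%, and 33.2% on the autosomes, where they have 34.2%. Within introns summits were 1.38 points above the intron bases on X and 2.36 points above on the autosomes. Bases masked as repeats in the reference were 28.2% of the X windows and 30.9% of the autosomal windows, against 30.6% and 36.8% of the whole sequences.

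**Figure D4:**
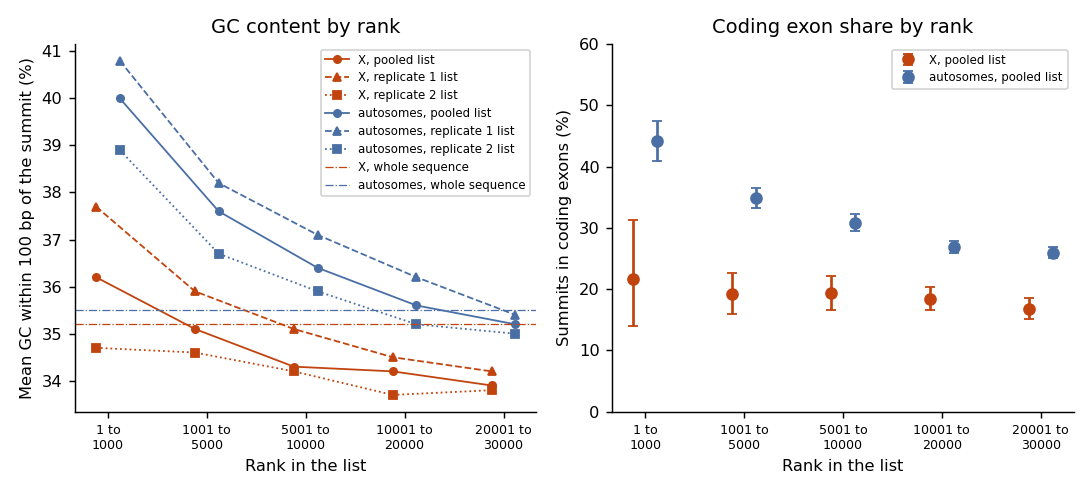
Left, mean GC within 100 bp of the summit by rank in each list, for X (orange) and the autosomes (blue), with the GC of the whole sequences as dash-dotted lines; right, share of summits in coding exons in the pooled list with exact binomial 95% intervals. At ranks 1 to 1000 X stands at 36.2% GC and 21.6% coding, against 40% and 44.2% on the autosomes.

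The palindrome TAATTA, which reads the same on both strands, was somewhat commoner at X summits. It was present within 100 bp of 632 X summits, or 12.7% (interval 11.7 to 13.6%), and of 10% of autosomal summits (9.64 to 10.4%). Windows of the same width tiled over the chromosomes held it in 10.2% on X and 9.12% on the autosomes. Summits therefore exceeded tiles by 2.42 points on X and 0.885 points on the autosomes, where the differences ran from -0.0154 on II to 1.57 on V. In replicate 1 the excess was 1.53 points on X and 0.4 on the autosomes, and in replicate 2 it was 2.07 on X and 1.01 on the autosomes. The letters are all A or T, X summits were lower in GC, and the part of that in the excess was not tested. At the strong end the lists differed. In the IDR list 1 of 13 X peaks held TAATTA, the alr-1 region printed above, and so did 13 of 169 autosomal peaks. Each of these shares is 7.69%. In the pooled top 1000 it was in 7.22% of the 97 X regions, against 7.09% of the 903 autosomal ones. These pooled shares were below those of the tiles, so the excess on X was not seen among the strongest pooled regions, which are few on X. In the top 1000 of replicate 1 it was in 12.5% of X regions and 7.03% of autosomal ones, and in that of replicate 2 in 14.9% of X regions and 8.13% of autosomal ones. The letters GAGAGA, searched on both strands, were in 7.55% of X summit windows and 9.5% of X tiles, against 9.38% and 10.1% on the autosomes.

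Regions were spread along the whole of X. The chromosome was divided into 10 sections of equal length, numbered from the left end, and in that order the pooled list had 443, 538, 484, 455, 479, 580, 519, 595, 483 and 417 regions. The end sections were the sparsest and sections 8 and 6 the densest. The strongest region of section 1 was region 10 beside the tRNA gene, and that of section 4 was in an intron of the long non-coding RNA gene linc-103 (rank 291). That of section 10 was in T25G12.3 and dhs-30, a short-chain dehydrogenase gene (rank 244). Of the 97 X regions in the top 1000, 19 were in section 7, which includes alr-1, and 4 in each end section. This depended on the list: the top 1000 of replicate 1 had 17 in section 7, 16 in section 2 and 7 and 3 in sections 1 and 10, and that of replicate 2 had 14 in section 7, 21 in section 2, 17 in section 8 and 7 and 10 in sections 1 and 10.

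Section 2 held 10.8% of X regions, against 5.76 to 10.1% on the autosomes. Section 8 held 11.9%, against 8.67 to 11.5%, and section 10 held 8.35%, against 9.29 to 11.8%. In both replicates X was again above each autosome in section 2 and below each in section 10. Section 8 did not repeat: X had 11.2% against 8.84 to 11.5% in replicate 1, and 11.5% against 8.38 to 11.8% in replicate 2. The central stretch, from 25% to 75% of the length, held 51.4% of X regions and 53.3% of autosomal regions (51.1 to 56.7%). In 100 kb bins, X averaged 28.2 ± 7.71 regions (SD, 177 bins), with a variance 2.11 times the mean, within the autosomal range of 1.87 to 3.1. The longest stretch of X without a summit was 52764 bp, from 198057 to 250821.

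**Figure D5:**
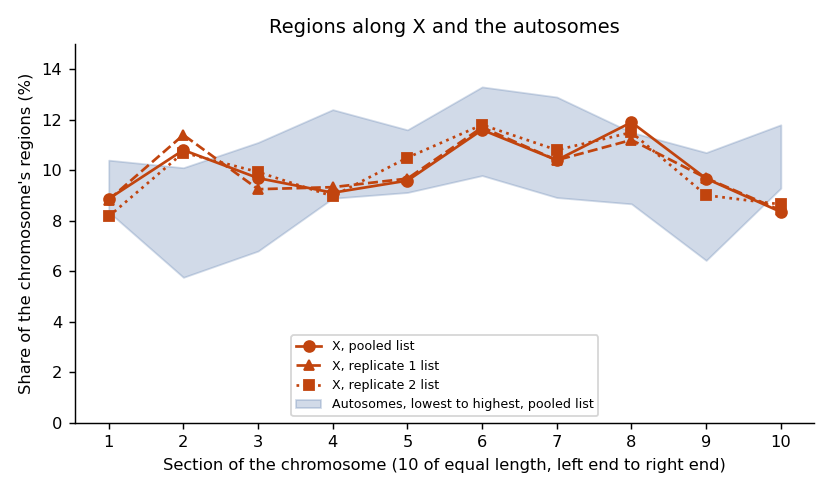
Share of X regions in each of 10 equal sections of the chromosome in the pooled list and both replicates (orange), with the lowest-to-highest range of the autosomes in the pooled list (blue band). In the pooled list X is above the band in section 2 at 10.8% and section 8 at 11.9%, and below it in section 10 at 8.35%. Against each replicate's own autosomal range, not drawn, section 8 of X lies within.

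Fewer X genes than autosomal genes had a summit near their 5′ end. A gene counted as in reach if the window reaching 1500 bp before its 5′ end and 500 bp past it held a summit. That applied to 1264 of 2731 protein-coding genes on X, or 46.3% (interval 44.4 to 48.2%), against 50.2% of 17242 on the autosomes (45.4% on V to 57.9% on III) and 49.7% over all. In the replicates the X share was 44.9% in replicate 1 and 48.9% in replicate 2, against 49.9% and 49.5% on the autosomes. With summits of the top 1000, 35 X genes or 1.28% were in reach, against 3.37% on the autosomes (1.8% on V to 5.42% on III) and 3.08% over all. X was thus below each autosome for strong summits, and within their range for all summits.

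The X signal elements and xol-1 all had a pooled summit in reach, 4 of 4 genes found on X in the annotation, against 46.3% of X genes. With so few genes the interval ran from 39.8 to 100% and includes that share. In the replicates' own lists 3 of 4 were in reach in replicate 1 and 4 of 4 in replicate 2. Besides ceh-39, xol-1 had a summit 417 bp upstream of its 5′ end, at rank 8449 with ranks 13940 in replicate 1 and 9034 in replicate 2. The fox-1 gene, an RNA-binding X signal element, had a summit 1127 bp upstream at rank 20315, with rank 15009 in replicate 1 and no replicate 2 counterpart. Only the ceh-39 summit was in the top 1000, and the others stood among ranks where many regions lacked a counterpart.

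The homeobox list, of 53 genes in the annotation, had summits in reach for 13 of 22 X members, or 59.1%. That compares with 46.3% of all X protein-coding genes and 17 of 31 autosomal members of the list. Of the X members, 3 had one of the top 1000 in reach (ceh-39, alr-1 and lim-4), or 13.6%, against 1.28% of all X genes and 1 of the 31 autosomal members. The list was chosen with earlier results of these data known, and alr-1 is also carried by the transgene, so no enrichment is drawn from these counts. The lim-4 gene, a LIM homeodomain gene of neuron identity, had its summit 1239 bp upstream at rank 368, with ranks 558 in replicate 1 and 1304 in replicate 2. Nuclear hormone receptor genes had 10 of 23 in reach and 2 in the top 1000, against 114 of 246 and 3 on the autosomes. The 2 on X were nhr-40 at rank 658, with ranks 3995 in replicate 1 and 507 in replicate 2, and nhr-255 at rank 724, with ranks 5596 and 327. Both were carried mainly by replicate 2. Rab GTPase and TBC-domain genes had 7 of 11 in reach and 1 with a top 1000 summit in reach, against 17 of 26 and 1 on the autosomes. The X gene was rab-14 at rank 457, with ranks 3080 in replicate 1 and 257 in replicate 2. Region 2, of rank 9, lies inside tbc-12, a member of that list, but 5063 bp from its 5′ end and so outside the window.

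Touch receptor neuron genes had 2 of 6 X members in reach in the pooled list and 4 of 6 in each replicate's own list. The shares of all X protein-coding genes were 46.3% pooled, 44.9% in replicate 1 and 48.9% in replicate 2. A pooled summit lay inside 5 of the 6, against 52.8% of all X genes. It also lay inside 22 of 24 ion channel and receptor genes and 13 of 16 axon guidance and adhesion genes, but 9 of 32 neuropeptide genes. A longer gene offers more room for a summit, and the part of gene length in these counts was not tested. In the window of fixed width around the 5′ end, the same lists had 33.3%, 37.5% and 34.4% in reach, all below 46.3%. On the autosomes 2 of 7 touch receptor neuron genes were in reach. The mec-7 gene, for the beta-tubulin of touch neurons, had its summit 1340 bp upstream at rank 3209, with ranks 2501 in replicate 1 and 9149 in replicate 2. The mec-2 gene, for a stomatin-like part of the touch channel, stood at rank 12683. Both were outside the top 1000.

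The remaining protein-coding lists had no member with a top 1000 summit in reach of its 5′ end. Over all X protein-coding genes that share was 1.28%, so lists of 2 to 32 genes can hold none without differing from it. The share of all X genes with any pooled summit in reach was 46.3%. Ion channel and transmitter receptor genes had 8 of 24 in reach, led by the potassium channel gene twk-18 at rank 1337, and the acetylcholine receptor genes acr-8 at 3168 and acr-12 at 6774. Neuropeptide genes had 11 of 32, led by flp-5 at rank 2262, and axon guidance and adhesion genes had 6 of 16, led by zig-3 at rank 14257. Muscle genes had 6 of 13, led by the Hand-type factor gene hnd-1 at rank 3181 and the troponin T gene tnt-3 at 4338. Collagen genes had 12 of 30, led by col-178 at rank 3299. Yolk and intestine genes had 2 of 10, led by the peptide transporter gene pept-1 at rank 13095, with 3 in replicate 1 and 5 in replicate 2. Ribosomal protein genes had 1 of 2, rpl-11.2 at rank 24242, with 1 in replicate 1 and 0 in replicate 2. Vacuolar ATPase genes had 1 of 3, vha-20 at rank 4992, and 2 of 3 in each replicate. Region 9, of rank 124, lies inside another member, vha-15, 926 bp past its 5′ end and so outside the window. Autosomal members in reach, for the lists in the order above, were 18 of 47, 25 of 70, 19 of 28 and 17 of 33. Then came 66 of 141, 6 of 17, 60 of 79 and 11 of 17. Those with a top 1000 summit were 3 axon guidance and adhesion, 1 muscle, 19 ribosomal protein and 1 vacuolar ATPase gene. The other lists had none there.

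Of the small RNA genes, tRNA genes had 133 of 276 X members in reach, or 48.2%, and 8 in the top 1000, including those beside regions 2 and 10. On the autosomes 170 of 336 were in reach and 10 in the top 1000. MicroRNA genes had 42 of 74 in reach, or 56.8%, and 0 in the top 1000, against 102 of 187 or 54.5% and 8 in the top 1000 on the autosomes. They were led by a single summit over mir-54 and mir-55 at rank 1407, with ranks 8170 in replicate 1 and 716 in replicate 2. Small nucleolar and spliceosomal RNA genes had 14 of 36 in reach and 0 in the top 1000, against 217 of 439 and 31 on the autosomes, and were led by D2021.6 at rank 2026. Neighbouring genes of this kind share summits, so their counts are not of separate regions. Over all X protein-coding genes, 46.3% were in reach of a summit and 1.28% of a top 1000 summit. The microRNA interval, 44.7 to 68.2%, and the tRNA interval, 42.2 to 54.3%, both include 46.3%.

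Some genes held several strong summits, and the part of gene length in this was not tested. Of 2731 protein-coding genes, 28 held at least 2 of the 500 strongest X summits and 6 held at least 3. The genes named here were chosen after their values were seen. The 6 were alr-1 with 4, and ajm-1, the kinase gene pkn-1, scd-1, the hemicentin gene him-4 and C46H3.2 with 3 each. Of these alr-1 was the shortest, with 1.6 summits of any rank per kb, against 0.75 in pkn-1 and 0.316 to 0.685 in the others. The gene with the most summits was nhr-27, with 28 over 102756 bp or 0.272 per kb, its best at rank 3743.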

How the data were processed

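ChIP-seq of ALR-1-GFP was analysed in 2 biological replicates of 1 group. The text files that the authors deposited say that the region lists of each replicate and of the pooled replicates were made from alignments and a control, and the IDR list from those lists. Coordinates are ce11, per the labels. Aligner, peak caller, settings and IDR threshold were not given in the sources used here. Control data and read depth were not analysed here. The deposited signal of each region, a value of the authors' peak caller, was used for ranking within a list.

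Summits took the first class that applied: promoter, UTR (5′ before 3′), coding exon, exon of a non-coding gene, intron, then intergenic (Ensembl release 115). GC and motifs were read within 100 bp of the summit. Named items are the 12 strongest X regions, all X IDR peaks, alr-1, up to 3 members per gene list with the best pooled rank, and the strongest region of each class and of each of 10 sections of X. Members, the 16 gene lists and comparisons were chosen with earlier results of these data known. The X signal element list held a gene symbol not matched in the annotation. No test across features was made. The scripts were tested on simulated data. Python 3.11.15, numpy 2.4.6, pandas 2.3.3 and scipy 1.17.1 were used.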

Additional observations from a re-analysis of the deposited data

How the results depend on the processing

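The 11 results were recomputed under 54 alternatives in all, and counted as moved when they shifted by more than 1 SD of the replicates' values: 37 moved, 2 changed sign and 15 did neither. That SD rests on the 2 single-replicate values, which are themselves among the alternatives. It ran from 0.0173 points for introns to 4.31 for counterparts, where it came from shares with a counterpart in 1 replicate. The counts therefore depend on how close 2 values were and do not measure robustness. No paired analysis was possible because there is only 1 group. Replicate 1 or 2 alone gave an X share of 15.9 to 17.4%, an X share of the top 182 of 6.04 to 9.89%, and X-minus-autosome differences of -10.1 to -9.75 percentage points for coding exons, 0.434 to 0.459 for introns, 13.9 to 14.3 for intergenic sequence, -5.48 to -4.69 for promoters, -1.78 to -1.65 for GC, 2.18 to 2.24 for TAATTA and -1.64 to -1.55 for the central stretch. X genes in reach were 44.9 to 48.9%. The difference in regions with counterparts was -2.22 points for both replicates, -4.27 to 1.83 for a counterpart in 1 replicate, -0.552 with summits within 100 bp, -3.61 within 500 bp, and turned to 0.754 in the top 10000. The counterpart in 1 replicate and the genes in reach per replicate were chosen after seeing the data. In the top 10000 the X share was 14.5%, and the differences were -14.5 points for coding exons, 2.2 for introns, 15.1 for intergenic sequence, -3.56 for promoters, -2.59 for GC, 3.48 for TAATTA and -1.74 for the central stretch. With no promoter class they were -12.8 for coding exons, 0.0731 for introns and 12.8 for intergenic sequence. With protein-coding promoters only they were -11.5 for coding exons, 0.472 for introns, 13.5 for intergenic sequence and -2.94 for promoters. With promoters of 2000 bp upstream to 200 bp downstream they were -3.98, 1.1, 5.64 and -3.65 points in the same order, since that class then took 52% of X summits and 55.7% of autosomal ones. Within 50 bp of the summit GC differed by -1.91 and TAATTA by 1.39 points, and within 200 bp by -1.5 and 4.1 points. A central stretch of 33.3% to 66.7% gave -1.1. The share of X genes in reach was 14.4% within 500 bp upstream to 100 bp downstream and 52.8% with summits inside genes. The cause of the sign changes in the counterpart difference was not tested. Read depth is unknown, so the limit it sets cannot be given.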
